A study of Mus musculus with 20 samples.

Results

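Ligands and receptors of the TNF superfamily were measured in the skin of mice with IL-23-induced inflammation. Members were taken by name: all probe sets with a single annotated gene symbol that begins with Tnfsf or Tnfrsf, or that is Tnf, Lta, Ltb, Ltbr, Fas, Fasl, Cd27, Cd70, Cd40, Cd40lg, Eda, Edar, Eda2r, Relt or Ngfr. This gave 71 probe sets of 42 genes, of 45101 probe sets and 18194 singly annotated genes on the array. By role they were 14 ligands, 27 receptors and Tnfsf13os, a noncoding transcript from the strand opposite Tnfsf13. A filter on variation across arrays (SD above 0.1) was passed by 37 of the 42 genes with 53 probe sets, beside 13740 of all 18194 genes. Cd40lg, Cd70, Tnfrsf8, Tnfsf4 and Tnfsf8 did not pass, with values of no more than 2.02 on the 20 arrays, which is the lowest value of every array. A member can pass this filter because it is high in a single group, so counts over the 37 describe those that passed and not the family as a whole.

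Groups of 5 female C57BL/6 mice, bought at 6 weeks of age, were compared. Mice of the IMO-8400, IMO-3100 and saline groups all received 3 µg of recombinant mouse IL-23 into the dorsal skin each day from day 1 to day 4. On days 4, 5 and 6 they received a subcutaneous injection away from the lesion, of 15 mg/kg IMO-8400 (an oligonucleotide antagonist of TLR7, TLR8 and TLR9), of 15 mg/kg IMO-3100 (an oligonucleotide antagonist of TLR7 and TLR9), or of PBS, which the labels call saline. Naïve mice were normal mice, and no injection is described for them, so IL-23 and the injections themselves cannot be told apart. Skin of the IL-23 injection site was collected on day 7, and its RNA was hybridized to an Affymetrix mouse array whose probe sets each report on 1 transcript region. Values are GCRMA log2 expression values, in which a difference of 1 is a fold change (FCH) of 2. Fold changes were fitted with limma over all probe sets, and a member was called up-regulated or down-regulated at a false discovery rate (FDR) under 0.05 with FCH over 2, at its probe set with the highest mean. In whole skin, fewer cells of a type and less RNA per cell cannot be told apart.

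Ligands of this superfamily are mostly trimers that sit in the cell membrane or are shed from it, and they cluster their receptors on a neighboring cell. Some receptors carry a death domain and can start apoptosis, others recruit TRAF adaptors and activate NF-kB, and decoy receptors bind a ligand without passing on the full signal. In skin, TNF is known for its part in psoriasis, the costimulatory pairs for their part in T cell responses, and the ectodysplasin branch for hair follicle formation.

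Array medians lay between 6.09 and 6.29, and no pair of arrays was identical. Naïve mouse 1 stood apart: its array correlated with any other at 0.982 or less, where every other array had a partner at 0.994 or above. It was the lowest naïve mouse for 19 of the 29 members that were above background in naïve skin and the highest for 4. Hair follicle markers (9 of 10 listed were annotated) averaged 3.20 to 7.57 in IMO-8400 mice, 3.07 to 3.32 in IMO-3100 mice, 3.08 to 3.52 in saline mice and 4.02 to 13.5 in naïve mice, and all 9 were lower in saline mice than in naïve mice. T cell markers (7 of 8 annotated) averaged 9.23 to 9.67 in IMO-8400 mice, 8.76 to 9.46 in IMO-3100 mice, 9.77 to 10.2 in saline mice and 6.20 to 8.47 in naïve mice. Keratinocyte markers averaged between 13.9 and 14.4 in all groups. Apart from a fit with the hair marker mean, given below, the part of these shifts in the results was not tested.

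The first comparison, of saline mice with naïve mice, asked which members differed in skin that had received IL-23. Of the 37 members that passed, 18 were up-regulated, where 9.02% of all genes were, and 4 were down-regulated, where 8.6% of all genes were. The ligands Fasl and Tnfsf14 and the receptors Tnfrsf9 and Cd27 had the highest fitted fold changes. The 4 down-regulated members, a share near the background, were the receptors Edar, Ngfr, Tnfrsf11b and Tnfrsf19. The median log2 FCH of the members was 0.86, against -0.01 for all genes. All 5 saline mice lay above all 5 naïve mice for 17 members (13.6% of all genes) and below them for 3 (13.2% of all genes).

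Naïve mouse 1 and the hair follicle markers bear on this contrast. Without naïve mouse 1, 15 members were up-regulated (8.82% of all genes) and 5 down-regulated (9.59%), and without naïve mice 1 and 2, left out after their values had been seen, 13 (8.1%) and 5 (9.12%). With the mean of the hair markers as a covariate, which separates naïve from saline mice by itself, 8 were up-regulated (7.45% of all genes), namely Cd27, Fasl, Ltb, Tnf, Tnfrsf4, Tnfrsf9, Tnfsf13os and Tnfsf14, and Ngfr, Tnfrsf11b and Tnfrsf19 were down-regulated (8.81% of all genes).

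**Figure D1:**
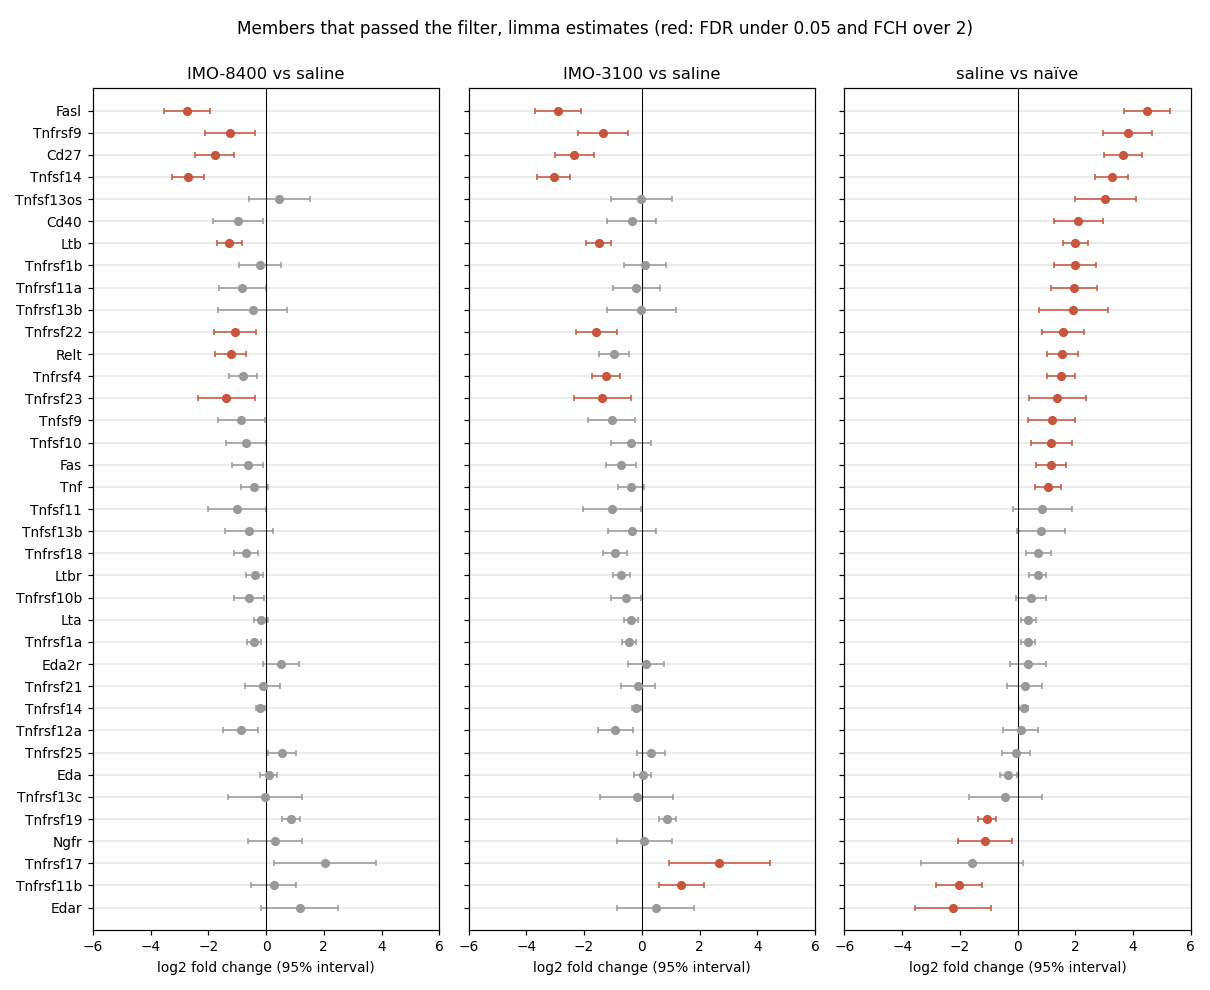
Log2 fold changes (points) with 95% intervals (bars) of the 37 members that passed the filter, for IMO-8400 against saline, IMO-3100 against saline and saline against naïve mice, 5 mice per group; red marks FDR under 0.05 with FCH over 2. In the panel of saline against naïve mice 18 members are red on the right and 4 on the left, and in each antagonist panel 8 are red on the left.

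The 2 antagonist comparisons asked which members differed in IL-23-injected skin between mice given an antagonist and mice given PBS. No control oligonucleotide is described, so TLR antagonism and other effects of an injected oligonucleotide cannot be told apart. With IMO-8400, 8 members were down-regulated (4.2% of all genes) and 0 were up-regulated (4.62% of all genes, limma). In limma, 22 of the 37 had an unadjusted p under 0.05 in either direction with IMO-8400, and 22 with IMO-3100. The share of all genes at that level was not counted, so nothing is read from the 22. The 8 down-regulated with IMO-8400 were the ligands Fasl, Ltb and Tnfsf14 and the receptors Cd27, Relt, Tnfrsf22, Tnfrsf23 and Tnfrsf9. With IMO-3100, 8 were down-regulated (4.66% of all genes), namely Fasl, Ltb, Tnfsf14, Cd27, Tnfrsf22, Tnfrsf23, Tnfrsf4 and Tnfrsf9. Tnfrsf11b and Tnfrsf17 were up-regulated with IMO-3100, beside 2.68% of all genes. The median log2 FCH of the members was -0.58 with IMO-8400 and -0.37 with IMO-3100, against 0.00 and -0.02 for all genes. All 5 mice lay below all 5 saline mice for 15 members with IMO-8400 (15.4% of all genes) and for 13 with IMO-3100 (14.8% of all genes). They lay above all 5 saline mice for 3 members with IMO-8400 (14.8% of all genes) and 3 with IMO-3100 (9.48% of all genes). The same 5 saline arrays enter all these contrasts, so values of a member set side by side below are not independent of each other.

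The count with IMO-8400 was 5 (Cd27, Fasl, Ltb, Relt and Tnfsf14) without IMO-8400 mouse 4, saline mouse 2 or saline mouse 3. The share of all genes without these mice was not counted. Without naïve mouse 1, 2 members, Edar and Tnfrsf17, were called higher with IMO-8400. That array enters this contrast only through the shared spread and the filter, which sets the probe sets that the FDR covers. Markers of several leukocytes moved in the same directions, T cell and NK cell markers as given beside members below. Neutrophil markers (5 of 6 annotated) averaged 9.77 to 10.6 in IMO-8400 mice, 9.72 to 11.1 in IMO-3100 mice, 11.6 to 12.1 in saline mice and 6.41 to 8.47 in naïve mice, with 5 higher in saline mice, 4 lower with IMO-8400 and 3 lower with IMO-3100. They include S100a8 and S100a9, which the paper counts among genes that IL-17 regulates in keratinocytes, so this list does not track neutrophils alone. Dendritic and Langerhans cell markers (5 of 5) averaged 9.03 to 9.57 in IMO-8400 mice, 8.63 to 9.37 in IMO-3100 mice, 9.37 to 9.61 in saline mice and 6.93 to 8.73 in naïve mice, and the part of these cells was not tested.

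Of the 14 ligands, 10 passed the filter; 6 were up-regulated in saline mice (9.02% of all genes), 3 were down-regulated with IMO-8400 (4.2%) and 3 with IMO-3100 (4.66%). In what follows, values are GCRMA log2 values of mice 1 to 5 of a group, numbers that only name a mouse. Tnfsf14, also called LIGHT, is a ligand of the herpesvirus entry mediator and of the lymphotoxin beta receptor. Its probe set 1450298_at read 3.78, 3.33, 4.31, 3.22 and 3.33 in IMO-8400 mice, 3.22, 3.24, 3.23, 3.22 and 3.28 in IMO-3100 mice, 5.89, 6.99, 6.72, 5.68 and 6.22 in saline mice, and 2.06, 3.23, 3.33, 3.22 and 3.33 in naïve mice. The saline mice stood clear above all 15 others, and naïve mouse 1 was lowest. It was up-regulated 9.63-fold in saline mice (log2 FCH 3.27, SE 0.27, FDR 7.44e-08), and down-regulated 6.53-fold with IMO-8400 (log2 FCH -2.71, SE 0.27, FDR 4.61e-06) and 8.34-fold with IMO-3100 (log2 FCH -3.06, SE 0.27, FDR 1.05e-06). All 3 calls held in the alternative settings, but the log2 FCH was as small as 2.30 in saline mice, -2.24 with IMO-8400 and -2.30 with IMO-3100. A second probe set of Tnfsf14, 1421588_at, stayed below 3 on every array and gave no call.

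Fasl, the ligand by which cytotoxic T cells and NK cells start apoptosis through Fas, was near background in naïve skin. Probe set 1449235_at read 3.24, 3.22, 4.71, 3.32 and 4.40 in IMO-8400 mice, 3.32, 5.02, 3.02, 3.32 and 3.34 in IMO-3100 mice, 6.70, 7.16, 7.16, 5.77 and 5.79 in saline mice, and 2.02, 2.02, 2.12, 2.02 and 2.02 in naïve mice. Saline mice lay above every mouse of the other groups, IMO-3100 mouse 2 and IMO-8400 mice 3 and 5 were the highest treated mice, and the naïve mice were at or near the lowest value of the array. Because all naïve values were under 3, taken here as near background, the rise is a bound, of at least 11.5-fold in saline mice (FDR 1.07e-07). Down-regulation against saline mice was 6.68-fold with IMO-8400 (log2 FCH -2.74, SE 0.38, FDR 0.000106) and 7.54-fold with IMO-3100 (log2 FCH -2.91, SE 0.38, FDR 8.00e-05). The other probe set of the gene, 1418803_a_at, read 3.63 to 5.90 in saline mice and under 3 in the other 15, with FDR 6.48e-05 for IMO-8400, 8.95e-05 for IMO-3100 and 6.17e-06 for saline against naïve mice. NK cell markers (4 of 5 annotated) moved beside it, averaging 8.46 to 9.50 in IMO-8400 mice, 8.58 to 9.60 in IMO-3100 mice, 9.73 to 11.0 in saline mice and 5.24 to 7.59 in naïve mice, and their part was not tested.

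Ltb encodes lymphotoxin beta, which anchors lymphotoxin alpha in the membrane as a ligand of Ltbr. Its values were 3.75, 3.33, 3.08, 3.07 and 3.08 in IMO-8400 mice, 3.43, 3.11, 2.91, 2.89 and 2.83 in IMO-3100 mice, 4.80, 4.38, 4.93, 3.99 and 4.56 in saline mice, and 2.83, 2.02, 2.83, 2.83 and 2.17 in naïve mice. Saline mice lay above all others, and the naïve mice were near background. Ltb was up-regulated at least 2.89-fold in saline mice (FDR 9.19e-07) and down-regulated 2.41-fold with IMO-8400 (log2 FCH -1.27, SE 0.20, FDR 0.000326) and 2.82-fold with IMO-3100 (log2 FCH -1.49, SE 0.20, FDR 0.000106). With values under 4 raised to 4 its log2 FCH was -0.53 with IMO-8400, -0.53 with IMO-3100 and 0.53 in saline against naïve mice, which is under the fold threshold. Ltb, Tnf and Lta are neighbors on chromosome 17, and Lta, the soluble partner, stayed under 3 on all 20 arrays.

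Tnf itself, the founding cytokine of the family, moved less. It read 5.58, 5.48, 5.48, 5.78 and 5.65 in IMO-8400 mice, 5.48, 6.33, 5.40, 5.44 and 5.47 in IMO-3100 mice, 5.70, 6.49, 6.71, 5.61 and 5.48 in saline mice, and 4.71, 5.07, 5.18, 4.73 and 5.04 in naïve mice. Saline mice lay above all naïve mice, but saline mice 1, 4 and 5 overlapped both antagonist groups and IMO-3100 mouse 2 stood high. Tnf was up-regulated 2.07-fold in saline mice (log2 FCH 1.05, SE 0.22, FDR 0.000970), just past the fold threshold, and its log2 FCH fell short of that threshold without naïve mouse 1 (0.99), naïve mouse 4 (0.999), saline mouse 2 (0.93) or saline mouse 3 (0.87). Against saline mice its log2 FCH was -0.40 with IMO-8400 (95% interval -0.87 to 0.06, FDR 0.183) and -0.37 with IMO-3100 (95% interval -0.84 to 0.09, FDR 0.225), so neither passed.

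Tnfsf9, the ligand of the costimulatory receptor 4-1BB, read 6.56, 6.74, 7.21, 6.00 and 7.39 in IMO-8400 mice, 6.99, 7.28, 6.70, 5.93 and 6.04 in IMO-3100 mice, 7.61, 8.06, 8.34, 7.09 and 7.09 in saline mice, and 6.33, 6.17, 5.98, 7.92 and 5.88 in naïve mice. Naïve mouse 4 was within the saline range and the other 4 naïve mice were below it. The 2.27-fold up-regulation in saline mice (log2 FCH 1.18, SE 0.38, FDR 0.0182) had FDR 0.0539 without saline mouse 3. Its log2 FCH was -0.86 with IMO-8400 (FDR 0.104) and -1.05 with IMO-3100 (FDR 0.0504). The IMO-3100 difference would be called without IMO-3100 mouse 2 (FDR 0.0308), saline mouse 4 (FDR 0.0426) or saline mouse 5 (FDR 0.0441). Over all alternative settings it ran from -1.31 to -0.88, with FDR from 0.00666 to 0.132 (limma).

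Tnfsf10 encodes TRAIL, an apoptosis-inducing ligand, and its 3 probe sets gave different answers. Probe set 1439680_at, with the highest mean, read 7.78, 8.18, 8.29, 7.90 and 8.14 in IMO-8400 mice, 8.30, 8.53, 8.39, 8.32 and 8.33 in IMO-3100 mice, 8.71, 9.42, 8.62, 8.47 and 8.52 in saline mice, and 5.83, 7.51, 8.04, 8.37 and 8.14 in naïve mice. Saline mice lay above all IMO-8400 and naïve mice and overlapped the IMO-3100 mice. This probe set was up-regulated 2.25-fold in saline mice (log2 FCH 1.17, SE 0.34, FDR 0.00861), with a log2 FCH of -0.69 with IMO-8400 (FDR 0.132) and -0.37 with IMO-3100 (FDR 0.446). Saline mouse 2 was high and naïve mouse 1 was far below the other mice, and without that naïve mouse the log2 FCH was 0.73, short of the call. Probe set 1420412_at read 3.26, 3.06, 3.34, 2.79 and 2.58 in IMO-8400 mice, 3.41, 4.11, 3.34, 3.34 and 3.57 in IMO-3100 mice, 6.98, 7.53, 5.57, 5.29 and 4.60 in saline mice, and 2.80, 2.58, 2.76, 3.37 and 2.88 in naïve mice. Here saline mice were separate from all others, with 8.69-fold up-regulation in saline mice (log2 FCH 3.12, SE 0.40, FDR 8.98e-06) and down-regulation of 7.95-fold with IMO-8400 (log2 FCH -2.99, SE 0.40, FDR 7.23e-05) and 5.44-fold with IMO-3100 (log2 FCH -2.44, SE 0.40, FDR 0.000426). The third probe set, 1459913_at, had FDR 0.0518 with IMO-8400, 0.0919 with IMO-3100 and 0.00394 in saline against naïve mice. The files do not say which transcripts these probe sets report.

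**Figure D2:**
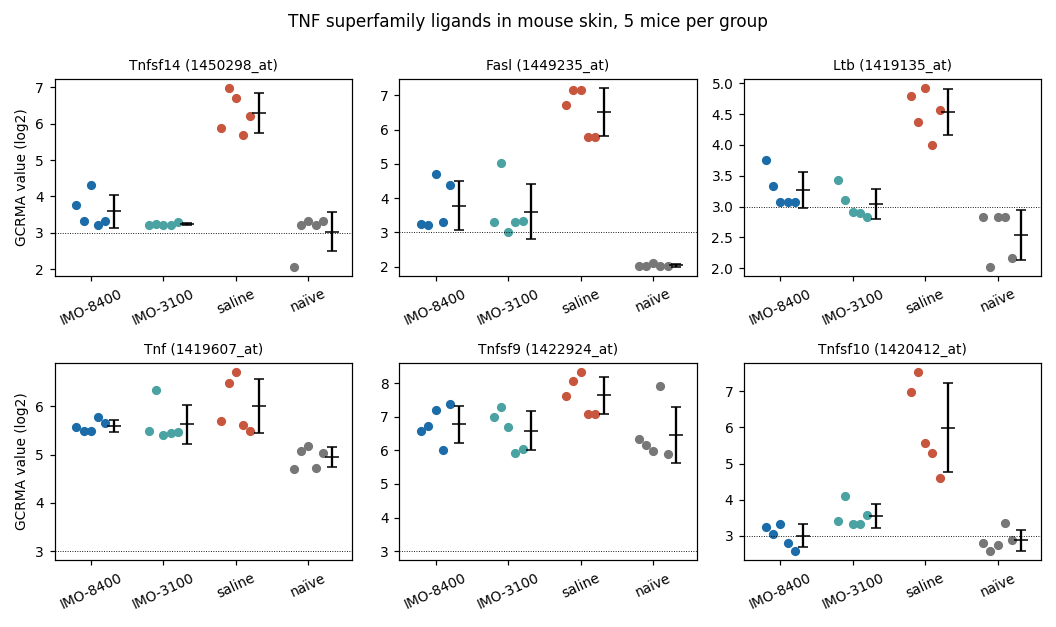
GCRMA log2 values of 6 ligands (1 point per mouse, 5 mice per group; bars at the right of each group are mean and SD; the dotted line marks 3, the level taken as near background). Saline mice lie above all other mice for Tnfsf14, Fasl, Ltb and Tnfsf10 probe set 1420412_at, and overlap the antagonist groups for Tnf and Tnfsf9.

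Sequence upstream of the 3 ligand genes down-regulated with both antagonists is shown because no other ligand was called lower with either antagonist at its main probe set. Each line is the RefSeq window from 250 bases before to 50 bases after the annotated start, 5′ to 3′ on the gene's strand, build GRCm38.p6. Capitals mark matches on either strand to an NF-kB motif (GGG, any 2 bases, then TTTCC), an AP-1 motif (TGANTCA) or a STAT motif (TTCNNNGAA), which occur in 1.63%, 7.81% and 8.3% of 32851 such windows.
Tnfsf14 (chr17:57194132-57194431, minus strand): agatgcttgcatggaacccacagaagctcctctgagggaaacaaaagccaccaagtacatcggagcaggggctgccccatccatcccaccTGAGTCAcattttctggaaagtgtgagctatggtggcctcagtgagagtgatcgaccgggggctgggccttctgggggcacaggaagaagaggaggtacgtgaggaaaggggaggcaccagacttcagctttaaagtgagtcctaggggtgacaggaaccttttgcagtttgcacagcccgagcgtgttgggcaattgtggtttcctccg
Fasl (chr1:161788446-161788745, minus strand): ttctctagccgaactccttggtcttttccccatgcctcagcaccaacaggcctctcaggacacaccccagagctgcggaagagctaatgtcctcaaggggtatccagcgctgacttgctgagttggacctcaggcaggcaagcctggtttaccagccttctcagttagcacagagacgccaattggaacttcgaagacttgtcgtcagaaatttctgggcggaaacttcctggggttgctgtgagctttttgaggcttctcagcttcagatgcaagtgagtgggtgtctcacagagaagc
Ltb (chr17:35194257-35194556, plus strand): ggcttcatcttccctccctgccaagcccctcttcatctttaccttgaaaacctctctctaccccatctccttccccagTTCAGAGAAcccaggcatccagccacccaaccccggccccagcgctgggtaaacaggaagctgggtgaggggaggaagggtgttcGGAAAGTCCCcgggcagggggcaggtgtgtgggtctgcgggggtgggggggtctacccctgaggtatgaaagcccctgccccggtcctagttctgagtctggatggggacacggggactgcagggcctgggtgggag
The Tnfsf14 window holds an AP-1 match (TGAGTCA) 160 bases before the start. The Ltb window holds an NF-kB match (GGAAAGTCCC, on the opposite strand) 87 bases and a STAT match (TTCAGAGAA) 172 bases before the start. The Fasl window holds none of the 3. Of the 42 members 33 had a window; NF-kB matches were in Ltb, Tnfrsf25 and Tnfrsf9, AP-1 matches in Fas, Tnfrsf8, Tnfrsf9, Tnfsf13b and Tnfsf14, and STAT matches in 9, Fas, Lta, Ltb, Tnfrsf18, Tnfrsf19, Tnfrsf1a, Tnfrsf1b, Tnfrsf25 and Tnfrsf9. A match describes letters only and is not evidence of binding.

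Receptors of the lymphocyte group, which costimulate T cells or support B cells, followed. Of 10 genes 9 passed, and 5 were up-regulated in saline mice (9.02% of all genes), 2 were down-regulated with IMO-8400 (4.2%), and 3 were down-regulated (4.66%) and 1 up-regulated (2.68%) with IMO-3100. Cd27 is a costimulatory receptor of T cells and NK cells. It read 5.95, 6.16, 5.52, 4.44 and 6.31 in IMO-8400 mice, 5.43, 5.66, 4.51, 4.83 and 5.17 in IMO-3100 mice, 7.55, 7.91, 7.70, 6.82 and 7.34 in saline mice, and 3.41, 3.43, 4.30, 3.73 and 4.22 in naïve mice. The groups did not overlap except for the 2 antagonists with each other. Cd27 was up-regulated 12.5-fold in saline mice (log2 FCH 3.65, SE 0.32, FDR 1.37e-07) and down-regulated 3.45-fold with IMO-8400 (log2 FCH -1.78, SE 0.32, FDR 0.000682) and 5.07-fold with IMO-3100 (log2 FCH -2.34, SE 0.32, FDR 0.000102). Both treated groups were still above naïve mice, 3.64-fold with IMO-8400 (FDR 0.000705) and 2.47-fold with IMO-3100 (FDR 0.00570).

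Tnfrsf9, or 4-1BB, is induced on activated T cells. Probe set 1460469_at read 6.61, 6.49, 6.62, 6.47 and 6.49 in IMO-8400 mice, 6.05, 7.21, 6.02, 6.49 and 6.41 in IMO-3100 mice, 7.69, 8.24, 8.05, 7.30 and 7.64 in saline mice, and 2.40, 3.69, 5.64, 3.46 and 4.68 in naïve mice. Naïve mice spread widely, yet all lay below the treated mice, which lay below the saline mice. Up-regulation in saline mice was 14.0-fold (log2 FCH 3.81, SE 0.41, FDR 1.50e-06), and down-regulation was 2.38-fold with IMO-8400 (log2 FCH -1.25, SE 0.41, FDR 0.0293) and 2.55-fold with IMO-3100 (log2 FCH -1.35, SE 0.41, FDR 0.0209). The IMO-8400 call had FDR above 0.05 (up to 0.0696) without IMO-8400 mouse 1, 2 or 4 or saline mouse 2 or 3, and the IMO-3100 call between 0.0505 and 0.0565 without IMO-3100 mouse 3 or saline mouse 2 or 3. A second probe set, 1428034_a_at, read 2.34, 2.33, 2.34, 2.34 and 2.34 in IMO-8400 mice, 2.34, 4.10, 2.33, 2.34 and 2.33 in IMO-3100 mice, 6.27, 7.05, 6.97, 3.46 and 4.76 in saline mice, and 2.08, 2.08, 2.08, 2.08 and 2.33 in naïve mice. All IMO-8400 mice and 4 IMO-3100 mice were under 3, against saline mice from 3.46 up, and the call was the same, with FDR 0.000242 for IMO-8400 and 0.000620 for IMO-3100. Tnfrsf9 has 2 annotated starts, and the second is shown because its window holds all 3 motifs in capitals, an NF-kB match (GGGGATTTCC) 43 bases, an AP-1 match (TGAGTCA) 15 bases and a STAT match (TTCCAAGAA) 136 bases before that start; the window of the first start holds none.
Tnfrsf9 (GRCm38.p6, chr4:150927749-150928048, plus strand): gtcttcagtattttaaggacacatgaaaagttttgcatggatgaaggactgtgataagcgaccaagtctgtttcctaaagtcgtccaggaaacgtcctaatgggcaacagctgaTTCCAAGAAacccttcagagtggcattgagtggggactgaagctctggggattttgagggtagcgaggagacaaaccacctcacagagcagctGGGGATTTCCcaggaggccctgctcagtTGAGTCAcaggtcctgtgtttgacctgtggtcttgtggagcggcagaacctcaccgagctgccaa

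Tnfrsf4 (OX40), a costimulatory receptor of activated T cells, read 8.53, 8.29, 8.65, 8.46 and 8.28 in IMO-8400 mice, 8.22, 8.68, 7.73, 7.76 and 7.52 in IMO-3100 mice, 9.01, 9.11, 9.16, 9.35 and 9.50 in saline mice, and 7.33, 7.78, 8.60, 7.63 and 7.18 in naïve mice. All saline mice were above all treated and all naïve mice. It was up-regulated 2.87-fold in saline mice (log2 FCH 1.52, SE 0.23, FDR 5.37e-05) and down-regulated 2.37-fold with IMO-3100 (log2 FCH -1.24, SE 0.23, FDR 0.00111). With IMO-8400 its FCH of 1.72 passed the FDR but not the fold threshold (log2 FCH -0.78, SE 0.23, FDR 0.0176). The difference between the antagonists, 0.46 (95% interval -0.03 to 0.94, FDR 0.260), did not pass. Tnfrsf18 (GITR), its neighbor on chromosome 4, had a log2 FCH of -0.69 with IMO-8400 (FDR 0.0162), -0.94 with IMO-3100 (FDR 0.00276) and 0.72 in saline mice (FDR 0.00716), none past FCH 2. Of the 7 T cell markers, 6 were up-regulated in saline mice, 2 down-regulated with IMO-8400 and 4 with IMO-3100, and the part of T cell number in the receptor values was not tested.

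Cd40, through which T cells activate B cells, dendritic cells and macrophages, read 11.01, 11.18, 11.25, 10.60 and 11.50 in IMO-8400 mice, 11.88, 12.14, 11.52, 11.49 and 11.63 in IMO-3100 mice, 12.30, 12.39, 12.05, 12.04 and 11.62 in saline mice, and 7.95, 9.52, 10.62, 10.76 and 11.02 in naïve mice. Naïve mouse 1 was lowest of all, and all naïve mice were below the saline mice. Cd40 was up-regulated 4.31-fold in saline mice (log2 FCH 2.11, SE 0.41, FDR 0.000490). With IMO-8400 all 5 mice were below all saline mice, with a log2 FCH of -0.97 (FDR 0.0828), and with IMO-3100 it was -0.35 (FDR 0.577); neither passed. The 2 other probe sets of Cd40 gave the same calls.

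The receptors of BAFF and APRIL, which support B cells and plasma cells, gave different calls. Tnfrsf13b (TACI) read 9.38, 9.43, 9.39, 8.51 and 9.30 in IMO-8400 mice, 10.00, 9.55, 9.59, 9.55 and 9.57 in IMO-3100 mice, 10.01, 9.79, 9.34, 9.67 and 9.53 in saline mice, and 4.79, 7.20, 8.28, 9.04 and 9.41 in naïve mice. Naïve mouse 1 was far below the rest and naïve mouse 5 was within the saline range. Its 3.79-fold up-regulation in saline mice (log2 FCH 1.92, SE 0.57, FDR 0.0107) had a log2 FCH of 0.76 (FDR 0.0169) without naïve mice 1 and 2, and 0.01 with the hair marker mean as a covariate. Tnfrsf17 (BCMA), a plasma cell receptor, read 7.48, 6.75, 7.17, 5.83 and 6.16 in IMO-8400 mice, 8.44, 7.16, 6.63, 7.38 and 7.08 in IMO-3100 mice, 4.61, 2.95, 3.34, 5.93 and 6.41 in saline mice, and 3.34, 6.87, 7.80, 4.61 and 8.52 in naïve mice. Saline mice 2 and 3 and naïve mouse 1 were low, and saline and naïve mice each spread over more than 3 units. It was up-regulated 6.46-fold with IMO-3100 (log2 FCH 2.69, SE 0.84, FDR 0.0241), and with IMO-8400 the log2 FCH was 2.03 (FDR 0.0787). The IMO-3100 call was lost without IMO-3100 mouse 1 (FDR 0.0580), saline mouse 2 (FDR 0.0670) or saline mouse 3 (FDR 0.0681), and with IMO-8400 the call was made without saline mouse 5 (FDR 0.0422). Its log2 FCH in saline against naïve mice was -1.58 (FDR 0.133), and it was called lower without naïve mouse 1 (log2 FCH -2.30, FDR 0.0162). Tnfrsf13c (BAFF receptor) was not called in any contrast. Of 4 annotated B cell markers Cd79a and Pax5 were near background on all arrays, and the list averaged 3.71 to 4.66 in IMO-8400 mice, 4.70 to 5.22 in IMO-3100 mice, 3.67 to 5.26 in saline mice and 2.38 to 3.41 in naïve mice.

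**Figure D3:**
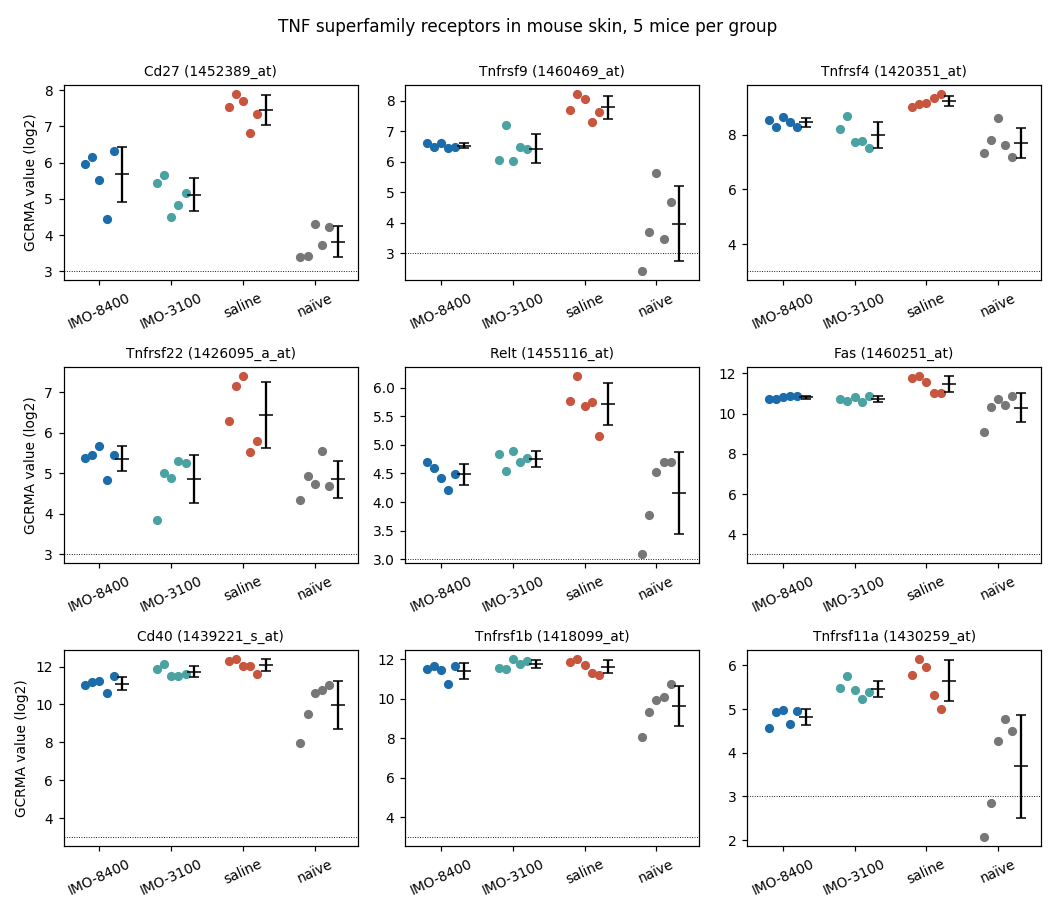
GCRMA log2 values of 9 receptors (1 point per mouse, 5 mice per group; bars at the right of each group are mean and SD; the dotted line marks 3). Saline mice lie above all antagonist and naïve mice for Cd27, Tnfrsf9, Tnfrsf4, Relt and Fas, while for Tnfrsf1b and Tnfrsf11a the IMO-3100 mice overlap the saline mice.

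Among the 7 death domain receptors, all of which passed, 1 was up-regulated (9.02% of all genes) and 2 were down-regulated (8.6%) in saline mice. With the antagonists 0 of the 7 were called, beside 4.62% of all genes higher and 4.2% lower with IMO-8400 and 2.68% higher and 4.66% lower with IMO-3100 (limma), so 0 of 7 is near the background. Fas, the receptor of Fasl, read 10.73, 10.71, 10.85, 10.87 and 10.89 in IMO-8400 mice, 10.75, 10.60, 10.81, 10.57 and 10.89 in IMO-3100 mice, 11.77, 11.84, 11.59, 11.05 and 11.00 in saline mice, and 9.09, 10.34, 10.75, 10.42 and 10.89 in naïve mice. Both treated groups lay in a narrow band below the saline mice, and naïve mouse 1 was lowest. It was up-regulated 2.22-fold in saline mice (log2 FCH 1.15, SE 0.25, FDR 0.00127), with a log2 FCH of 0.85 without naïve mouse 1. Its log2 FCH was -0.64 with IMO-8400 (FDR 0.0640) and -0.73 with IMO-3100 (FDR 0.0392). Tnfrsf1a, the widely expressed TNF receptor, was not called: its log2 FCH was -0.43 with IMO-8400 (FDR 0.0109), -0.45 with IMO-3100 (FDR 0.00828) and 0.38 in saline mice (FDR 0.0139). Tnfrsf10b, the mouse TRAIL receptor, exceeded 3 in saline mouse 5 alone, and Tnfrsf21 and Tnfrsf25 were not called in any contrast.

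Edar, the ectodysplasin receptor of the hair follicle, read 4.28, 4.55, 3.01, 3.00 and 3.04 in IMO-8400 mice, 3.02, 3.20, 3.07, 2.64 and 2.53 in IMO-3100 mice, 2.14, 2.11, 2.47, 2.47 and 2.88 in saline mice, and 7.99, 3.94, 3.55, 3.20 and 4.55 in naïve mice. All saline mice were near background and naïve mouse 1 was far above the rest. Edar was at least 3.13-fold lower in saline mice (FDR 0.00789), and with values under 4 raised to 4 it was not called (FDR 0.204). Ngfr, the low-affinity neurotrophin receptor, read 7.52, 7.31, 7.01, 7.09 and 7.09 in IMO-8400 mice, 7.17, 6.98, 6.85, 6.63 and 7.24 in IMO-3100 mice, 7.24, 6.41, 6.63, 7.38 and 6.79 in saline mice, and 7.45, 7.13, 7.40, 10.56 and 7.59 in naïve mice. Naïve mouse 4 stood far above its group and the other naïve mice overlapped the saline mice. The 2.20-fold down-regulation in saline mice (log2 FCH -1.13, SE 0.45, FDR 0.0481) had a log2 FCH of -0.50 without naïve mouse 4, and its FDR was above 0.05 without saline mouse 1, 2, 3 or 5. With the hair marker mean as a covariate the log2 FCH in saline mice was -1.16 for Edar (FDR 0.319), and the part of hair follicles in it cannot be told apart from that of the groups, which this mean separates.

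Among the 7 other signaling receptors, 3 were up-regulated (9.02% of all genes) and 1 down-regulated (8.6%) in saline mice, 1 was down-regulated with IMO-8400 (4.2%) and 0 were called with IMO-3100 (4.66% lower, 2.68% higher). Tnfrsf1b, the TNF receptor of immune cells, read 11.52, 11.66, 11.48, 10.74 and 11.67 in IMO-8400 mice, 11.58, 11.53, 12.00, 11.75 and 11.92 in IMO-3100 mice, 11.88, 12.01, 11.74, 11.33 and 11.23 in saline mice, and 8.08, 9.33, 9.96, 10.12 and 10.75 in naïve mice. The 3 IL-23 groups overlapped, all saline mice lay above all naïve mice, and IMO-8400 mouse 4 was lowest among the IL-23 groups. It was up-regulated 3.98-fold in saline mice (log2 FCH 1.99, SE 0.35, FDR 0.000178), with a log2 FCH of -0.22 with IMO-8400 (95% interval -0.95 to 0.50) and 0.12 with IMO-3100 (95% interval -0.61 to 0.84). Its second probe set, 1448951_at, gave a log2 FCH of -0.96 with IMO-8400 (FDR 0.0232) and a down-regulation of 2.06-fold with IMO-3100 (log2 FCH -1.04, SE 0.30, FDR 0.0156). Macrophage and monocyte markers (6 of 6 annotated) averaged 11.8 to 12.6 in IMO-8400 mice, 12.7 to 13.1 in IMO-3100 mice, 12.5 to 12.9 in saline mice and 8.91 to 10.9 in naïve mice, and their part was not tested.

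Tnfrsf11a (RANK), known for osteoclast formation, read 4.57, 4.93, 4.99, 4.66 and 4.95 in IMO-8400 mice, 5.49, 5.77, 5.43, 5.24 and 5.38 in IMO-3100 mice, 5.79, 6.14, 5.98, 5.32 and 5.00 in saline mice, and 2.06, 2.84, 4.27, 4.78 and 4.51 in naïve mice. Naïve mice 1 and 2 were under 3, saline and IMO-3100 mice overlapped, and the IMO-8400 mice lay just below the saline mice. It was up-regulated 3.88-fold in saline mice (log2 FCH 1.95, SE 0.39, FDR 0.000577), with a log2 FCH of -0.83 with IMO-8400 (FDR 0.118) and -0.19 with IMO-3100 (FDR 0.786). Its ligand Tnfsf11 (RANKL) was near background in all mice but saline mouse 3. Relt, a receptor of hematopoietic tissue, read 4.71, 4.59, 4.42, 4.21 and 4.49 in IMO-8400 mice, 4.84, 4.54, 4.89, 4.71 and 4.78 in IMO-3100 mice, 5.77, 6.19, 5.67, 5.76 and 5.16 in saline mice, and 3.09, 3.77, 4.52, 4.71 and 4.71 in naïve mice. Saline mice lay above all others. Relt was up-regulated 2.93-fold in saline mice (log2 FCH 1.55, SE 0.25, FDR 9.68e-05) and down-regulated 2.34-fold with IMO-8400 (log2 FCH -1.23, SE 0.25, FDR 0.00188), and its FCH of 1.95 with IMO-3100 (log2 FCH -0.96, SE 0.25, FDR 0.00958) was short of the fold threshold, and past it without saline mouse 5 (log2 FCH -1.10).

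Tnfrsf19 (TROY), a receptor of hair follicle stem cells, ran the other way. Probe set 1448147_at read 11.78, 11.97, 12.25, 12.63 and 12.12 in IMO-8400 mice, 12.22, 11.96, 12.19, 12.30 and 12.16 in IMO-3100 mice, 10.93, 11.45, 11.29, 11.54 and 11.22 in saline mice, and 12.26, 12.38, 12.62, 12.27 and 12.21 in naïve mice. Saline mice lay below every other mouse. It was down-regulated 2.09-fold in saline mice (log2 FCH -1.06, SE 0.14, FDR 1.53e-05), which missed the fold threshold without naïve mouse 3 (log2 FCH -0.99) or saline mouse 1 (-0.97). With the antagonists the log2 FCH was 0.86 with IMO-8400 (FDR 0.000386) and 0.88 with IMO-3100 (FDR 0.000404), past the FDR but under FCH 2. A second probe set, 1415921_a_at, was up-regulated 2.21-fold with IMO-8400 (FDR 0.0202), and the third, 1425212_a_at, had FDR 0.0680 in saline against naïve mice.

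The 3 decoy receptors, all of which passed, differed in direction. Tnfrsf22, a mouse decoy receptor of TRAIL, read 5.37, 5.46, 5.68, 4.85 and 5.44 in IMO-8400 mice, 3.86, 5.00, 4.89, 5.31 and 5.26 in IMO-3100 mice, 6.30, 7.15, 7.40, 5.52 and 5.81 in saline mice, and 4.33, 4.95, 4.74, 5.56 and 4.70 in naïve mice. Saline mice 2 and 3 were highest, and saline mouse 4 was within the range of IMO-8400 and naïve mice. It was up-regulated 2.99-fold in saline mice (log2 FCH 1.58, SE 0.34, FDR 0.00124) and down-regulated 2.11-fold with IMO-8400 (log2 FCH -1.07, SE 0.34, FDR 0.0259) and 2.98-fold with IMO-3100 (log2 FCH -1.57, SE 0.34, FDR 0.00310). The IMO-8400 call was lost without IMO-8400 mouse 4 (FDR 0.0679), saline mouse 2 (FDR 0.0739) or saline mouse 3 (FDR 0.0811). Its second probe set, 1422038_a_at, exceeded 3 in saline mouse 1 alone and gave no call. Tnfrsf23, its neighbor on chromosome 7 and likewise a mouse TRAIL decoy, read 2.08, 2.08, 2.08, 2.08 and 2.08 in IMO-8400 mice, 2.08, 2.08, 2.08, 2.08 and 2.13 in IMO-3100 mice, 2.77, 5.05, 5.31, 2.11 and 2.09 in saline mice, and 2.08, 2.08, 2.08, 2.08 and 2.08 in naïve mice. Only saline mice 2 and 3 were above 3. The saline group was at least 1.83-fold above naïve mice (FDR 0.0242), IMO-8400 mice at least 1.83-fold below it (FDR 0.0366) and IMO-3100 mice at least 1.83-fold below it (FDR 0.0390). These bounds are under FCH 2. The 3 calls, which enter the counts above, rest on fitted log2 FCH of 1.38, -1.38 and -1.37 that include values near background. Each of these 3 calls was lost without saline mouse 2 or saline mouse 3. Both antagonist calls also had FDR above 0.05 without any 1 mouse of the antagonist group.

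Tnfrsf11b, or osteoprotegerin, is a secreted decoy of RANKL. Probe set 1449033_at read 4.14, 4.18, 4.00, 4.65 and 4.23 in IMO-8400 mice, 4.62, 4.29, 6.83, 5.95 and 5.02 in IMO-3100 mice, 4.19, 4.14, 4.13, 3.49 and 3.93 in saline mice, and 5.60, 7.06, 5.89, 5.79 and 5.66 in naïve mice. Saline and IMO-8400 mice were low, IMO-3100 mice 3 and 4 reached the naïve range and naïve mouse 2 was highest. It was down-regulated 4.06-fold in saline mice (log2 FCH -2.02, SE 0.38, FDR 0.000337). With IMO-3100 it was up-regulated 2.58-fold (log2 FCH 1.37, SE 0.38, FDR 0.0125), short of FCH 2 without IMO-3100 mouse 3 (log2 FCH 0.99), and with IMO-8400 the log2 FCH was 0.26 (95% interval -0.52 to 1.05). The other probe set, 1418309_at, was under 3 on 19 arrays and gave no call.

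**Figure D4:**
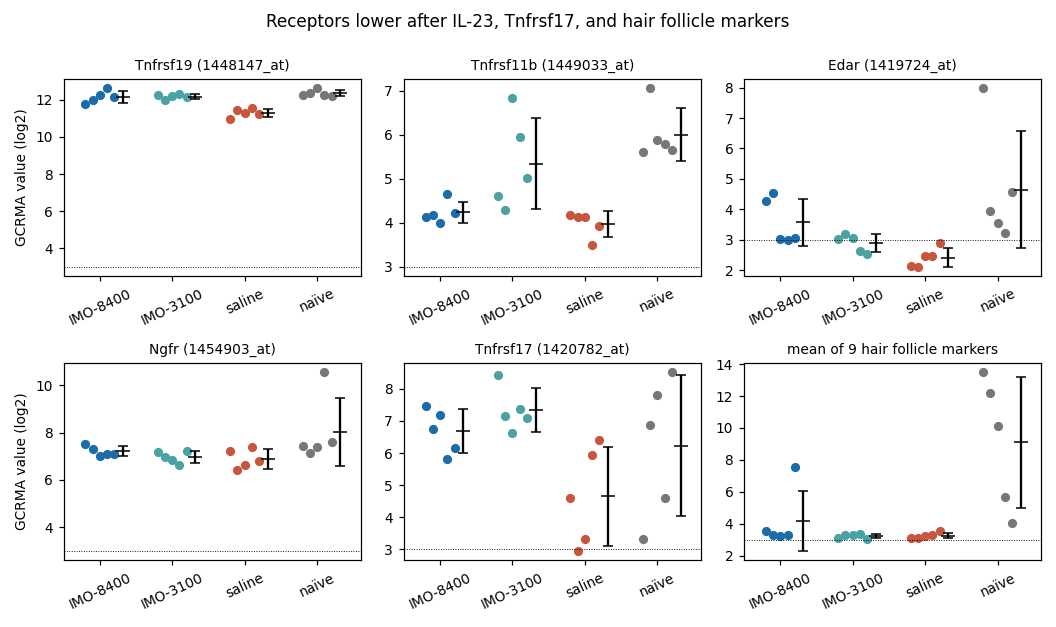
GCRMA log2 values of Tnfrsf19, Tnfrsf11b, Edar, Ngfr and Tnfrsf17, and the mean of 9 hair follicle markers (1 point per mouse, 5 mice per group; bars at the right of each group are mean and SD; the dotted line marks 3). Saline mice lie below naïve mice for Tnfrsf19, Tnfrsf11b and Edar, naïve mouse 4 is apart for Ngfr, and the hair marker mean spans 4.02 to 13.5 in naïve mice.

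Tnfsf13os, transcribed opposite Tnfsf13 (the ligand APRIL), is no ligand, and whether its probe set reads that strand alone was not tested. It read 8.46, 8.40, 8.22, 8.05 and 8.23 in IMO-8400 mice, 6.44, 8.25, 8.05, 8.05 and 8.24 in IMO-3100 mice, 7.20, 7.37, 8.07, 8.20 and 8.24 in saline mice, and 3.95, 4.14, 6.55, 3.27 and 5.97 in naïve mice. Naïve mice were low, IMO-3100 mouse 1 fell within the naïve range, and the other groups overlapped. It was up-regulated 8.23-fold in saline mice (log2 FCH 3.04, SE 0.50, FDR 0.000112), with a log2 FCH of 0.46 with IMO-8400 (95% interval -0.60 to 1.51) and -0.01 with IMO-3100 (95% interval -1.06 to 1.04).

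The 14 other members that passed, with 24 probe sets, were not called at their main probe set in these 3 contrasts. They are Eda, Lta, Tnfsf11 and Tnfsf13b among ligands, and Eda2r, Ltbr, Tnfrsf10b, Tnfrsf12a, Tnfrsf13c, Tnfrsf14, Tnfrsf18, Tnfrsf1a, Tnfrsf21 and Tnfrsf25 among receptors. Ltbr, the receptor of Ltb and Tnfsf14, read 10.1 to 10.6 in IMO-8400 mice, 9.77 to 10.3 in IMO-3100 mice, 10.6 to 11.0 in saline mice and 9.85 to 10.6 in naïve mice. Its log2 FCH was -0.39 with IMO-8400 (FDR 0.0453), -0.72 with IMO-3100 (FDR 0.00155) and 0.69 in saline mice (FDR 0.000707), each past the FDR and under FCH 2. Tnfrsf14, the other receptor of Tnfsf14, was near background in all 20 mice. Tnfrsf12a, the TWEAK receptor, had a log2 FCH of -0.88 with IMO-8400 (FDR 0.0317), -0.92 with IMO-3100 (FDR 0.0268) and 0.11 in saline mice (FDR 0.786).

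Downstream of the receptors, a list of 38 adaptors, kinases, NF-kB subunits and inhibitors gave 32 tested genes. In saline mice 9 were up-regulated and 0 down-regulated, beside 9.02% and 8.6% of all genes, with a median log2 FCH of 0.48. They included Rel, an NF-kB subunit, with 7.88 to 8.83 in IMO-8400 mice, 7.92 to 9.30 in IMO-3100 mice, 8.76 to 9.58 in saline mice and 4.15 to 5.63 in naïve mice, an up-regulation of 17.8-fold in saline mice (FDR 1.66e-08). All mice given IL-23 lay above all naïve mice for Rel. Traf1, an adaptor of TNF receptors that NF-kB induces, was up-regulated 4.02-fold in saline mice (FDR 3.39e-06), and Mlkl and Ripk3, which carry out necroptosis, 3.83-fold and 3.80-fold. With IMO-8400, Ripk3 (3.05-fold, FDR 0.00103) and Mlkl (2.92-fold, FDR 0.00169) were down-regulated, and with IMO-3100 Ripk3 (2.65-fold, FDR 0.00292), Traf1 (2.31-fold, FDR 0.00139) and Nfkb2 (2.02-fold, FDR 0.000424), with 0 of the list up-regulated by either. These 2 and 3 of 32 stand beside 4.2% and 4.66% of all genes called lower, and the 0 beside 4.62% and 2.68% called higher, and nothing is read from counts this small. The median log2 FCH of the list was -0.15 with IMO-8400 and -0.14 with IMO-3100. Tnfaip3 (A20), which limits NF-kB signaling, was up-regulated 2.57-fold in saline mice (FDR 1.07e-05) and read 10.1 to 11.3 in IMO-8400 mice, 10.5 to 10.9 in IMO-3100 mice and 10.3 to 11.0 in saline mice.

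The antagonists were given at the same dose on the same days, so their readouts can be set against each other. The study describes IMO-8400 as an antagonist of TLR8 as well. It also states that mouse TLR8 has been held to be nonfunctional, and cites evidence proposing that TLR8 regulates other TLRs. The part of TLR8 was not tested here. In this single pair of antagonists, 0 of the 37 members were called in either direction (limma, 2 at an unadjusted p under 0.05), beside 0.386% of all genes called higher and 0.138% called lower in IMO-8400 mice. The lowest FDR among them was 0.101, that of Tnfrsf11b, which averaged 4.24 ± 0.24 in IMO-8400 mice and 5.34 ± 1.04 in IMO-3100 mice (SD, n = 5 each), a log2 difference of -1.10 (95% interval -1.89 to -0.31). Without IMO-3100 mouse 2, this difference was -1.36 with FDR 0.0391 in limma, and it would be called. Over all alternative settings it ran from -1.36 to -0.73, which is under FCH 2, with FDR from 0.0133 to 0.246 (limma). Ltbr differed by 0.33 (95% interval 0.03 to 0.62, FDR 0.187), with overlapping mice.

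For the members down-regulated with the antagonists, the difference IMO-8400 minus IMO-3100 was 0.35 for Tnfsf14 (95% interval -0.21 to 0.92), 0.17 for Fasl (-0.63 to 0.98), 0.56 for Cd27 (-0.11 to 1.22) and 0.23 for Ltb (-0.20 to 0.66). It was 0.10 for Tnfrsf9 (-0.76 to 0.96) and -0.27 for Relt (-0.80 to 0.26). For Tnfrsf22 the difference was 0.50 (limma, FDR 0.427), and for Tnfrsf23, near background in both groups, it was -0.008. That of Tnfrsf4 is given above. Estimates were under 1 in size for 36 of the 37 members, but the whole interval lay within -1 to 1 for 20 of them, so a difference of FCH 2 was within the interval for the others. All 5 IMO-8400 mice lay below all 5 IMO-3100 mice for Tnfrsf11a, Tnfrsf13b and Tnfsf10 (4.59% of all genes lay so), and above them for 0 (6.64% of all genes).

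**Figure D5:**
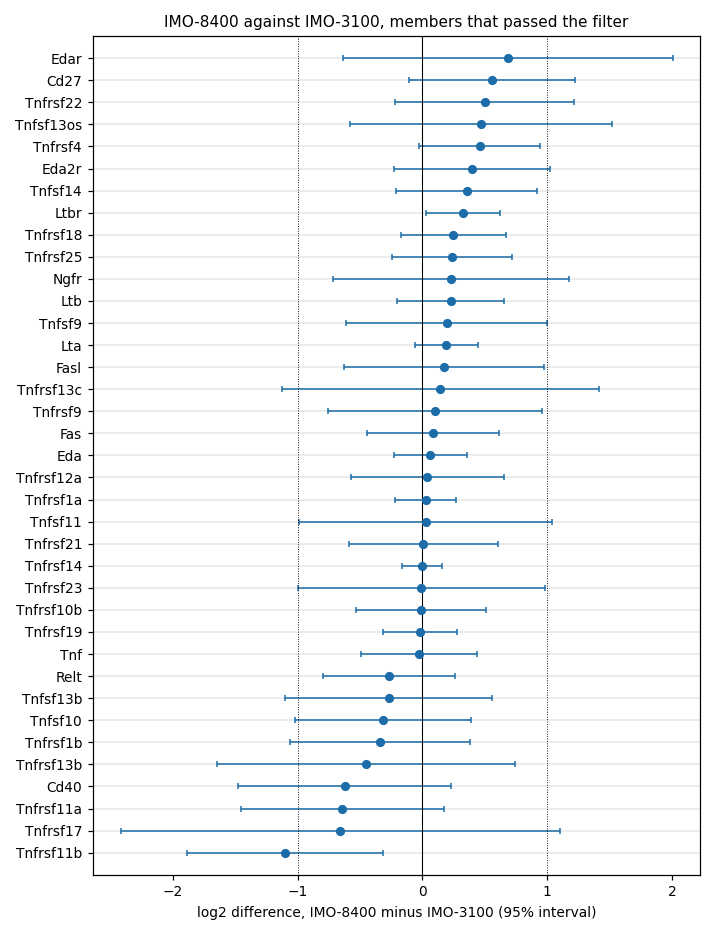
Log2 difference IMO-8400 minus IMO-3100 (points) with 95% interval (bars) for the 37 members that passed the filter, 5 mice per group; dotted lines mark FCH 2. The intervals of 2 members exclude 0, Tnfrsf11b on the left and Ltbr on the right, and neither passed the FDR.

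Finally, each antagonist group was compared with naïve mice, whose arrays these contrasts share with that of saline mice. With IMO-8400, 5 members were still up-regulated (4.77% of all genes) and 1 was down-regulated (2.55% of all genes). The 5 were Cd27, Fasl, Tnfrsf1b, Tnfrsf9 and Tnfsf13os, and the down-regulated member was Tnfrsf11b (FDR 0.00401). With IMO-3100, 8 were up-regulated (5.76% of all genes), namely Cd27, Cd40, Fasl, Tnfrsf11a, Tnfrsf13b, Tnfrsf1b, Tnfrsf9 and Tnfsf13os, and Edar was down-regulated (4.85% of all genes). With the hair marker mean as a covariate only Tnfrsf9 and Tnfsf13os of these 8 were called (2.59% of all genes), and without naïve mice 1 and 2 Cd40, Tnfrsf11a and Tnfrsf13b were not. Tnfrsf9 was 5.90-fold above naïve mice with IMO-8400 (FDR 0.000406) and 5.50-fold with IMO-3100 (FDR 0.000342). Tnfsf14 was not called against naïve mice, with a log2 FCH of 0.56 with IMO-8400 (95% interval -0.01 to 1.13) and 0.21 with IMO-3100 (95% interval -0.36 to 0.78). The bound for Fasl was small, at least 1.71-fold with IMO-8400 (FDR 0.00488) and 1.52-fold with IMO-3100 (FDR 0.00585). With values under 4 raised to 4 neither Fasl call held (log2 FCH 0.22, FDR 0.676 with IMO-8400, and 0.20, FDR 0.683 with IMO-3100), and with the hair marker mean as a covariate the IMO-3100 call had FDR 0.0583. Tnfrsf1b was 3.41-fold up-regulated with IMO-8400 (FDR 0.00211) and 4.32-fold with IMO-3100 (FDR 0.000303). With the hair marker mean as a covariate, 2 IMO-8400 calls were lost, Tnfrsf1b (log2 FCH 0.94, FDR 0.108) and Tnfrsf11b (log2 FCH -1.52, FDR 0.0665). Tnfsf13os was 11.3-fold up-regulated with IMO-8400 (FDR 0.000148) and 8.16-fold with IMO-3100 (FDR 0.000328). Single naïve mice decided other calls with IMO-8400. Cd40 (1.13, FDR 0.0619) and Tnfrsf11a (1.13, FDR 0.0506) would be called without naïve mouse 3, 4 or 5 (FDR 0.0177 to 0.0430). Tnfrsf13b (1.46, FDR 0.0833) would be called without naïve mouse 4 (FDR 0.0442) or 5 (FDR 0.0237). Other settings weakened them in limma. The log2 FCH was as low as 0.16 for Cd40 (FDR up to 0.882), 0.12 for Tnfrsf11a (up to 0.906) and -0.15 for Tnfrsf13b (up to 0.913). With IMO-3100, the Edar call (log2 FCH -1.76, FDR 0.0449) was lost without naïve mouse 1 or 5 or any 1 IMO-3100 mouse, and Tnfrsf11b (-0.66, FDR 0.203) was called lower without IMO-3100 mouse 3 (log2 FCH -1.03, FDR 0.0241).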

How the data were processed

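Total RNA from the skin of 20 mice, 5 in each of 4 groups, was measured on a one-color Affymetrix mouse array. The authors deposited GCRMA log2 values, already background-corrected and normalized across arrays, and these were used as deposited. Neither the labels nor the methods state which GCRMA version was run. Groups follow the sample labels, and the design text of the series, which speaks of doses of one antagonist, was not used for them. Replicates are separate mice, and the number of arrays limits the precision.

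Probe sets were kept with a value above 2 on at least 3 arrays, which removed 0, and with SD above 0.1, which kept 30960 of 45101. Moderated fits over all 20 arrays used limma 3.58.1 in R 4.3.3, with Benjamini-Hochberg FDR over all kept probe sets, two-sided, in 6 contrasts. Calls required FDR under 0.05 and FCH over 2. A gene is represented by its probe set with the highest mean. GEO's platform annotation gave 34958 probe sets 1 symbol, 932 several and 9211 none. Groups with all 5 arrays under 3 were taken as near background, and folds against them are bounds with values raised to 3. Members named with full values were those called in a contrast of saline with naïve mice or of an antagonist with saline mice or with the other antagonist, with any further probe set of theirs that gave another call, and up to 6 called adaptor genes per contrast. Members and lists were chosen with earlier results of these data known. The fit was tested on simulated data. Alternatives covered scaling, filters, a floor, array weights, the fit's groups, the hair marker mean and leaving out each mouse.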

Additional observations from a re-analysis of the deposited data

Results flagged for a closer look

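Within 86 groups of 5 mice of the members described by mouse, leaving out groups near background, 13 had 1 mouse whose gap to the nearest other mouse, as a share of the group's range, was above Dixon's limit of 0.71. Chance alone flags about 1 in 20 groups. IMO-8400 mouse 4 was low for Tnfrsf1b (10.7, the others 11.5 to 11.7, gap share 0.799) and for Tnfrsf13b (8.51, the others 9.30 to 9.43, 0.862). IMO-3100 mouse 1 was low for Tnfsf13os (6.44, the others 8.05 to 8.25, 0.891) and Tnfrsf22 (3.86, the others 4.89 to 5.31, 0.711), and high for Tnfrsf13b (10.0, the others 9.55 to 9.59, 0.913). IMO-3100 mouse 2 was high for Fasl (5.02, the others 3.02 to 3.34, 0.840) and Tnf (6.33, the others 5.40 to 5.48, 0.915). Saline mouse 2 was high for Tnfsf10 (9.42, the others 8.47 to 8.71, 0.744).

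Of the naïve mice, mouse 1 was low for Tnfsf14 (2.06, the others 3.22 to 3.33, 0.911) and high for Edar (7.99, the others 3.20 to 4.55, 0.718). Naïve mouse 2 was high for Tnfrsf11b (7.06, the others 5.60 to 5.89, 0.802). Naïve mouse 4 was high for Tnfsf9 (7.92, the others 5.88 to 6.33, 0.780) and Ngfr (10.6, the others 7.13 to 7.59, 0.866).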

How the results depend on the processing

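In IMO-8400 against saline mice, the 8 members called lower became 13 by FDR alone and 5 to 8 without 1 mouse each. The 0 called higher became 2 with array weights, 2 with only those groups in the fit and 1 by FDR alone. That count became 1 with every probe set counted, 1 with the hair marker mean and 0 to 1 without 1 mouse of these groups each. It was 2 (Edar and Tnfrsf17) without naïve mouse 1, whose array enters only the shared spread and the filter. Ranges without 1 mouse each leave out mice of the groups compared. For most settings in this section the share of all genes was not counted. A looser setting can raise that share too, so a changed count is not read as a result about the members. In IMO-3100 against saline mice, the 8 called lower became 15 by FDR alone, 12 with array weights and 6 to 10 without 1 mouse each, and the 2 called higher 1 to 2. In saline against naïve mice, the 18 called higher became 8 with the hair marker mean (7.45% of all genes) and 15 to 19 without 1 mouse each. The 4 called lower became 2 with only those groups, 2 with values under 4 raised to 4 and 2 to 5 without 1 mouse each. Between the antagonists, the 0 called lower became 1 with array weights and 0 to 1 without 1 mouse each.

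Against naïve mice, the 5 called higher with IMO-8400 became 8 by FDR alone and 5 to 9 without 1 mouse each, and the 1 called lower became 0 with the hair marker mean. With IMO-3100, the 8 called higher became 2 with the hair marker mean (2.59% of all genes) and 5 without naïve mice 1 and 2. The 1 called lower became 2 by FDR alone and 0 with array weights, no filter, only those groups, quantile normalization, the strict filter or values raised to 4, and 0 to 1 without 1 mouse each. Tnfrsf13b in IMO-3100 against naïve mice turned to a log2 FCH of -0.0089 with the hair marker mean. The cause was not tested, beyond the fewer samples or other thresholds these settings bring. Low signal limits Edar, Ltb, Tnfrsf23 and Fasl, whose groups lay partly under 3. Tnfsf14, Tnfrsf9, Tnfrsf11a, Tnfrsf17 and Tnfsf10 probe set 1420412_at also had mice under 3, so their folds rest partly on low values. No paired analysis was possible because the labels give no replicate numbers shared between groups.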
